A study of Mus musculus with 20 samples.

Results

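The major urinary protein (Mup) genes form a large family of secreted lipocalins, and 42 of the 37681 genes listed in each count table carry a Mup symbol followed by a number or by -ps and a number. These 42 members were taken by symbol alone, without regard to their values. They comprise 21 genes and 21 pseudogenes.

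Major urinary proteins are small barrel-shaped proteins that hold volatile ligands in a hydrophobic pocket. In the male mouse they are made in large amounts by hepatocytes, enter the blood and are excreted in urine, where they carry and release pheromones. Their transcription in liver is known to depend on the pulsed secretion of growth hormone, and Mup20 encodes darcin, a male pheromone.

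Liver RNA was taken from 10 male mice, 12 weeks old, of strain C57/B6J (given elsewhere in the labels as C57/BL6), wild type and taken from a commercial supplier. In the IL-1β group, 5 mice received the inflammatory cytokine IL-1β at 20 µg/kg by intraperitoneal injection, and in the untreated group 5 mice received saline. All livers were collected 4 hours later. Each mouse gave 1 Illumina HiSeq library and 1 Ion Torrent Proton library from poly-A RNA of the same liver, so that the 20 libraries come from 10 animals, and reads of each platform were aligned with GSNAP, STAR or STAR + Bowtie2. The samples are whole liver, and in bulk tissue fewer cells of a type and less RNA per cell cannot be told apart. Libraries are named below by group and mouse, and values in every library are given in the order ILB_9577, ILB_9578, ILB_9579, ILB_9582 and ILB_9583 for IL-1β and UNT_9574, UNT_9575, UNT_9576, UNT_9580 and UNT_9584 for untreated mice.

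On mm9 (NCBIM37), 41 members lay together on chromosome 4, between positions 59969676 and 61811897, counted from 1. The exception was Mup-ps22, which has 1 exon of 243 bases at chr11:54937197-54937439 on the plus strand. Of the 21 genes, 20 were on the minus strand, and Mup6 was on the plus strand. Of the 20 pseudogenes on chromosome 4, 15 were on the plus strand and 5 on the minus strand. All 21 genes were annotated as protein-coding, with coding lengths of 534 to 552 bases. Exons of Mup2 overlapped exons of Mup7 on the same strand, and exons of Mup14 overlapped those of Mup15, so reads in the overlaps belong to neither gene for certain. Mup-ps1 lies in an intron of Mup2 and Mup-ps11 in an intron of Mup15, each on the other strand. Both library kits keep the strand of the RNA, but whether the counting used it is not given in the sources used here.

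By coding sequence the 21 genes fell into 2 sets, a division made after the values had been seen. Mup1, Mup2 and Mup7 to Mup19 formed a set of 15 near-identical genes, each at least 97% identical to the 14 others, with a closest relative at 99.3% to 99.8%. Mup3, Mup4, Mup5, Mup6, Mup20 and Mup21 formed the set of 6 distinct genes, of which Mup3 was closest to Mup21, at 94.7%. Illumina reads were paired, with 125 bases from each end of a fragment, and Ion Torrent reads were single. How far a read can be assigned without the other read of its pair was described by cutting each transcript into all runs of 125 bases. This is the length of an Illumina read, and the runs found in no other member were counted. Such runs made up 99.9% of Mup3, 99.8% of Mup21, 100% of Mup4, Mup5 and Mup6 and 66.2% of Mup20. Within the near-identical set they made up 49.8% of Mup17, 30.6% of Mup10, 18.2% of Mup7, 5.87% of Mup15 and 5.85% of Mup2, and none of Mup19. Ion Torrent reads vary in length. Runs of 50 bases found in no other member made up 83.4% of Mup3, 80.7% of Mup21 and 49.9% of Mup20. For Mup4, Mup5 and Mup6 these parts were 87.6%, 83.9% and 95.7%. They were 21.9% for Mup17, 19.5% for Mup10 and 3.64% for Mup7, and Mup2, Mup15 and Mup19 had none. Reads of the near-identical genes, taken singly, are therefore uncertain as to which copy they come from. Every value of a single copy below carries that uncertainty, and how far pairing narrows it on Illumina was not examined.

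The second coding exon shows the relations that the counts turn on. It was 134 bases long in all 21 genes and occurred in 13 versions, of which 8 genes shared 1 version and Mup20 shared its own with Mup-ps19. The sequences are those of the NCBIM37 reference with Ensembl gene models, written 5′ to 3′ on the strand of the gene, and capitals mark bases that differ from Mup20. They are printed for Mup20 and its matching pseudogene, for Mup3 and Mup21 as the most different genes, for Mup4 as a distinct gene close to Mup20, and for Mup7, Mup10 and Mup11 of the near-identical set.
Mup20 (chr4:61714514-61714647, minus strand): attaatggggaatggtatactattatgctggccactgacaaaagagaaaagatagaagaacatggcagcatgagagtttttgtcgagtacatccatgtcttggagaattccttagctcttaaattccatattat
Mup-ps19 (chr4:61620376-61620509, minus strand): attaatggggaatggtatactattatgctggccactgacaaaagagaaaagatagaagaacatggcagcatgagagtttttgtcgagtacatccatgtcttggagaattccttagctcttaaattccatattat
Mup4 (chr4:59972911-59973044, minus strand): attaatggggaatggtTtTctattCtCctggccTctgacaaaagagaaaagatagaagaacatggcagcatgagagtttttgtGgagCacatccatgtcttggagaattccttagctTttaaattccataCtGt
Mup3 (chr4:61747834-61747967, minus strand): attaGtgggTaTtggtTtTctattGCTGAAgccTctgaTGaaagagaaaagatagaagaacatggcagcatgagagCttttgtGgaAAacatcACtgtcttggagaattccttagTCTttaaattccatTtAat
Mup21 (chr4:61811229-61811362, minus strand): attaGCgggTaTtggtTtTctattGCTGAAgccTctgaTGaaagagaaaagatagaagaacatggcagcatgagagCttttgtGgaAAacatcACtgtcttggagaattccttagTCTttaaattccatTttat
Mup7 (chr4:60082605-60082738, minus strand): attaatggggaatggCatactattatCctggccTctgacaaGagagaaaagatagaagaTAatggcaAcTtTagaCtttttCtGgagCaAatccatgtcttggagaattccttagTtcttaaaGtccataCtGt
Mup10 (chr4:60594393-60594526, minus strand): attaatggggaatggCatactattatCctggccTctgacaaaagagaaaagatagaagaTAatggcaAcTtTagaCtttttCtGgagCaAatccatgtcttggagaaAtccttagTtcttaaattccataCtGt
Mup11 (chr4:60674602-60674735, minus strand): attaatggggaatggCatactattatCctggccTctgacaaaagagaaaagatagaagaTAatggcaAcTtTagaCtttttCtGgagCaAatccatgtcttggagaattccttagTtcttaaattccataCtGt
Compared with Mup20, 25 bases differed in Mup3 and in Mup21, 10 in Mup4, 18 in Mup7, 17 in Mup10 and 16 in Mup11. The Mup11 version was the one shared by 8 genes, namely Mup1, Mup2, Mup9, Mup11, Mup12, Mup15, Mup18 and Mup19. Reads that lie within this exon cannot by themselves distinguish these 8 genes, nor Mup20 from Mup-ps19.

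Mup-ps22 was read from the same build because it is the only member outside chromosome 4 and has its own PCR primers. Its 243 bases align to the end of the Mup20 coding sequence, from base 304 counted from the start codon, through the stop codon. They differ from Mup20 at 24 bases, which is an identity of 90.1%.
Mup-ps22 (chr11:54937197-54937439, plus strand): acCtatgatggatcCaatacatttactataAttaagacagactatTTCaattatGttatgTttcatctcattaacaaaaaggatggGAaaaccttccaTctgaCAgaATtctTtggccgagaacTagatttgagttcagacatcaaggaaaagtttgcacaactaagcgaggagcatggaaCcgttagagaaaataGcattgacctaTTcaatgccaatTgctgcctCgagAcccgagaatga
Mup-ps22 forward primer: CATCTGACAGAATTCTTTGGCCG
Mup-ps22 reverse primer: TCGAGGCAGCAATTGGCATT
Capitals in the Mup-ps22 line again mark differences from Mup20, and the primers, designed by the study for qPCR, are printed in capitals throughout. The forward primer matched Mup-ps22 without a mismatch at chr11:54937293-54937315, and the reverse primer, on the other strand, at chr11:54937407-54937426, for a product of 134 bases. In the other 41 members the forward primer had at least 6 mismatches and the reverse primer at least 2. The longest run of bases that Mup-ps22 shares without a difference with Mup20 was 56 bases, shorter than an Illumina read.

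The values are whole-number counts per gene, which the authors re-sampled within each of 6 tables (2 platforms by 3 aligners), and whether an Illumina count is a read or a read pair is not stated in the tables. They are called reads here. Total counts ranged from 10568530 to 12008799 per Illumina library and from 12199528 to 16439683 per Ion Torrent library. Because each table was normalized by itself, levels given for several tables are only described. The Illumina and Ion Torrent libraries of UNT_9584 matched each other less than those of the other mice. Across genes, their deviations from their groups had a correlation of 0.199 to 0.248 over the aligners. For the other 9 mice it was 0.547 to 0.721. The correlation cannot show which of the libraries deviates. The study reports that the read lengths of the Ion Torrent library of this mouse were shifted. Results are therefore also given without UNT_9584.

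The summed Mup reads were lower in the livers of IL-1β mice than in untreated livers on the Illumina platform. On the Ion Torrent platform they lay lower without passing the main test, a result that depended on the scaling. In the Illumina GSNAP data, Mup reads made up 1.75%, 1.29%, 1.69%, 1.74% and 1.77% of all reads in the IL-1β libraries and 3.23%, 2.16%, 1.83%, 2.87% and 2.86% in the untreated libraries. Every IL-1β library was below every untreated library. The means were 1.65% ± 0.204 (SD, n = 5) and 2.59% ± 0.576 (SD, n = 5). In an edgeR quasi-likelihood fit, in which the 42 members were replaced by their sum, the log2 fold change of IL-1β over untreated was -0.53 (SE 0.17, Benjamini-Hochberg adjusted p = 0.0172). The fold changes of such fits are relative to TMM-normalized library sizes, whose factors were 0.92 to 1.1 over the tables. In the Illumina GSNAP data their medians were 0.956 in IL-1β and 1.05 in untreated libraries. With library totals in place of TMM, the log2 fold change was -0.65 (edgeR adjusted p = 0.00321).

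The same comparison with STAR gave 1.39%, 1.11%, 1.4%, 1.38% and 1.35% against 2.34%, 1.79%, 1.48%, 2.2% and 2.28%, and with STAR + Bowtie2 3.19%, 2.27%, 2.99%, 3.09% and 3.15% against 5.81%, 3.67%, 3.37%, 4.96% and 5.04%. The groups did not overlap with either aligner. The edgeR log2 fold changes were -0.48 (SE 0.15, adjusted p = 0.0137) and -0.53 (SE 0.17, adjusted p = 0.0172). Without UNT_9584 the Illumina fold changes were -0.47, -0.41 and -0.48 with GSNAP, STAR and STAR + Bowtie2 (edgeR adjusted p = 0.038, 0.0307 and 0.0315).

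In the Ion Torrent GSNAP data, Mup reads made up 1.4%, 1.32%, 1.48%, 1.46% and 1.19% of the IL-1β libraries and 2.19%, 1.55%, 1.39%, 2.16% and 1.59% of the untreated libraries. Here the groups overlapped, since UNT_9576 lay below 3 IL-1β libraries, and 22 of the 25 pairs of an IL-1β and an untreated library had the lower value in the IL-1β library. The edgeR log2 fold change was -0.27 (SE 0.14, adjusted p = 0.13). With STAR it was -0.24 (SE 0.14, adjusted p = 0.187), and with STAR + Bowtie2 -0.32 (SE 0.16, adjusted p = 0.11). Without UNT_9584 these values were -0.31, -0.28 and -0.34 (edgeR adjusted p = 0.111, 0.162 and 0.111). With library totals in place of TMM, each Ion Torrent fold change passed, at -0.37, -0.36 and -0.41 (edgeR adjusted p = 0.0279, 0.0396 and 0.025). The median over all genes tested was then -0.10, -0.09 and -0.09. Among untreated mice, UNT_9576 had the lowest Mup share in all 6 tables, and UNT_9574 had the highest in 5 of them.

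**Figure D1:**
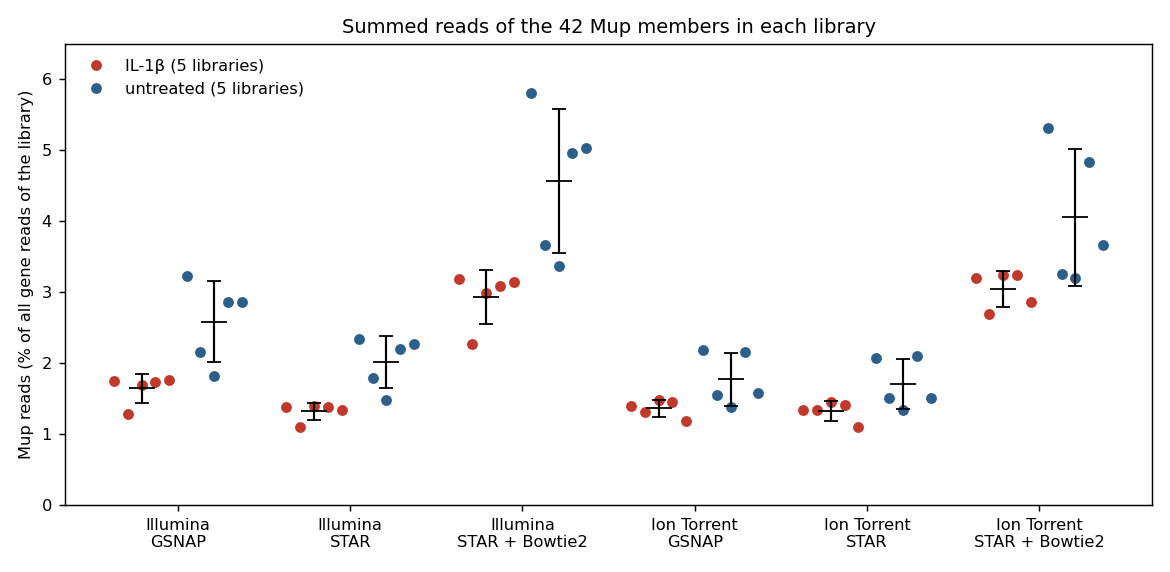
Summed reads of the 42 Mup members as a percentage of all reads (y axis) in each library, by platform and aligner, with points for the libraries and bars for the mean and SD of 5 mice per group. IL-1β libraries lie below all untreated libraries in the 3 Illumina tables and overlap them in the 3 Ion Torrent tables.

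Whether the effect differed between the platforms was tested with each aligner in 1 fit of all 20 libraries, blocked by mouse. The log2 effect on the summed Mup reads was higher (nearer to 0) on Ion Torrent by 0.30 (GSNAP), 0.25 (STAR) and 0.20 (STAR + Bowtie2), with standard errors of 0.10, 0.09 and 0.08. None of these terms passed the edgeR adjusted threshold (adjusted p = 0.573, 0.66 and 0.554; unadjusted p = 0.00624, 0.00905 and 0.0189). Without UNT_9584 the terms were 0.21, 0.15 and 0.19, with standard errors of 0.06, 0.05 and 0.05. They did not pass either (edgeR adjusted p = 0.33, 0.376 and 0.178; unadjusted p = 0.00238, 0.0019 and 0.00064).

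A few genes held most of the Mup reads, and Mup3 held more than any other member in every table. Mup3 accounted for a mean of 42.7% of Mup reads in the Illumina GSNAP data, 57.8% with STAR and 24.7% with STAR + Bowtie2, and for 53.1%, 63.4% and 26.5% in the Ion Torrent data. Among all genes of a library, Mup3 ranked between 4 and 18 by reads. Scaled to transcript length and library size (RPKM), the mean Mup3 level was 8784 to 10166 in the 6 tables, compared with 1725 to 3509 for Mup20 and 747 to 4207 for Mup7.

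The order of the next members depended on the table. Mup7 came second with Illumina and GSNAP, at 17.7% of Mup reads, followed by Mup20 at 9.23%, Mup10 at 8.08% and Mup14 at 6.99%. With Illumina and STAR, Mup20 came second, at 19.3%, and Mup7 had 8.66%. With Illumina and STAR + Bowtie2, Mup7 had 9.95%, Mup11 8.77%, Mup20 8.19% and Mup18 7.77%. Mup18 had only 0.019% with STAR and 0.672% with GSNAP from the same Illumina libraries, and Mup13 had 3%, 0.000863% and 0.0587% with STAR + Bowtie2, STAR and GSNAP.

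Shares also varied between mice. In the Illumina GSNAP data the share of Mup3 ran from 31.6% in UNT_9574 to 50.7% in ILB_9578, and that of Mup7 from 12.1% in ILB_9578 to 25.2% in UNT_9574. The mice with the extreme shares of Mup3 were thus the ones with the opposite extremes of Mup7. Both are shares of the same sum, so a higher share of Mup3 leaves less for Mup7. Opposite shares therefore do not show that the genes moved in opposite directions. In reads, ILB_9578 was the lowest library for both genes, with 73225 for Mup3 and 17537 for Mup7. UNT_9574 was the highest for Mup7, with 93919, but with 117656 was not the lowest for Mup3. Over groups, Mup3 had a mean share of 44% in IL-1β and 41.4% in untreated mice, and Mup7 had 16.7% and 18.6%. These differences were smaller than the SD over the 10 libraries, 5.59 for Mup3 and 4.02 for Mup7.

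**Figure D2:**
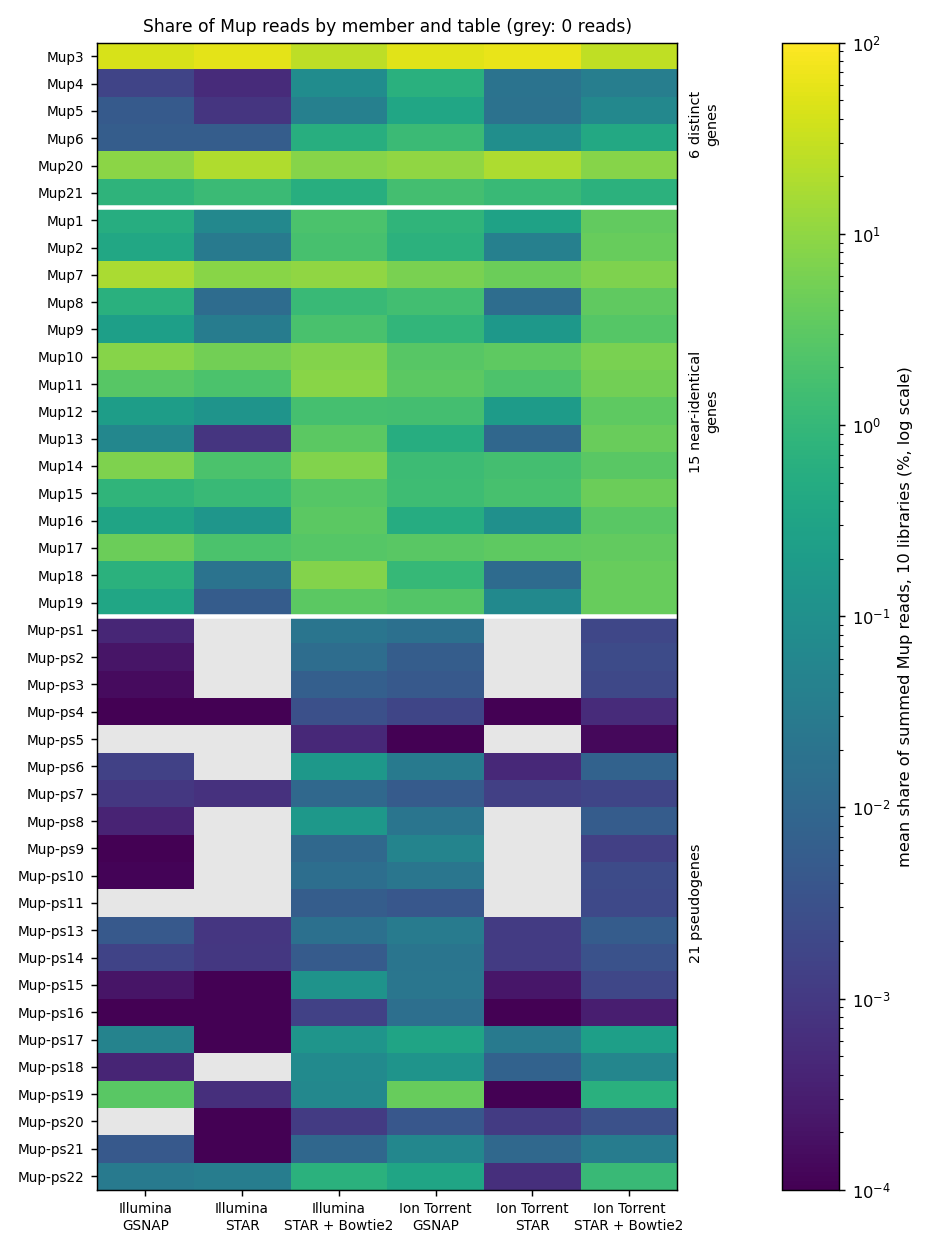
Mean share of summed Mup reads over the 10 libraries (percent, logarithmic color scale) of each of the 42 members (vertical axis) in the 6 tables (horizontal axis), with grey for 0 reads and the darkest color for values at or below the lower end of the scale. Mup3 has the highest share in each table, at 24.7% to 63.4%, while many pseudogenes are grey or dark with STAR.

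The summed share of the near-identical genes changed more between aligners than that of the distinct genes, most of whose reads belong to Mup3 and Mup20. All ratios in this comparison are of shares, that is, of the percentage of all reads of a library, since the 6 tables were re-sampled separately and differ in their totals. Relative to GSNAP, the 15 near-identical genes together had 0.371 to 0.395 times the share with STAR in the 10 Illumina libraries and 0.533 to 0.647 times in the Ion Torrent libraries. The distinct genes had 1.16 to 1.22 times and 1.13 to 1.23 times the share. STAR + Bowtie2, in which reads left unaligned by STAR were given to Bowtie2, then yielded 5.96 to 7.66 times the STAR share for the near-identical genes on Illumina and 7.08 to 9.77 times on Ion Torrent. For the distinct genes these ratios were 0.954 to 0.974 and 0.989 to 1.04. The distinct genes other than Mup3 and Mup20 (Mup4, Mup5, Mup6 and Mup21) did not follow their set. With STAR they had 1.19 to 1.26 times the GSNAP share on Illumina and 0.257 to 0.377 times on Ion Torrent, the latter below the ratios of the near-identical genes. STAR + Bowtie2 gave them 2 to 2.61 times the STAR share on Illumina and 1.93 to 2.77 times on Ion Torrent.

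For the summed pseudogenes, the STAR share was 0.00796 to 0.0137 times the GSNAP share on Illumina and 0.00707 to 0.0167 times on Ion Torrent. As a share of Mup reads, the pseudogenes had medians of 3.05%, 0.0381% and 1.49% (GSNAP, STAR, STAR + Bowtie2) on Illumina, and 5.5%, 0.0497% and 2.19% on Ion Torrent. A member counted as detected with 5 or more reads in 5 or more libraries of a table. Detected members numbered 25, 19 and 41 on Illumina and 41, 24 and 39 on Ion Torrent. Members with no read in any library numbered 3, 10 and 0 on Illumina and 0, 8 and 0 on Ion Torrent. Mup-ps5 did not reach that minimum in any table, and the other 41 members did in at least 1.

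Mup4, Mup5 and Mup6, distinct genes whose 125-base runs occur in no other member, also depended on platform and aligner. Mup4 and Mup5 are known chiefly from nasal, lachrymal and salivary glands. With GSNAP, Mup4 had 4, 1, 4, 3 and 1 reads in the IL-1β and 7, 6, 3, 6 and 9 reads in the untreated Illumina libraries. The Ion Torrent libraries of the same livers had 1284, 1382, 1535, 1340 and 1103 against 1780, 1534, 1421, 1720 and 1278 reads. With STAR the Ion Torrent counts of Mup4 were 18 to 37 and 34 to 52. In shares of Mup reads with GSNAP, Mup4 had 0.0017% on Illumina and 0.627% on Ion Torrent, Mup5 0.00494% and 0.349%, and Mup6 0.00579% and 1.24%. All 3 genes had a higher share on Ion Torrent in 10 of 10 mice with GSNAP.

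Across the family, the share of 36 members with GSNAP was higher on Ion Torrent in all 10 mice, and that of 4 members was lower. With STAR the numbers were 15 and 5, and with STAR + Bowtie2 17 and 20. Mup7 and Mup10 were on the lower side with each aligner, with median Ion Torrent to Illumina share ratios of 0.347, 0.509 and 0.706 for Mup7 and 0.334, 0.595 and 0.812 for Mup10.

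Mup20 and Mup-ps19 were compared as a pair after their values had been seen, since GSNAP listed many reads for the pseudogene. The spliced Mup-ps19 sequence of 519 bases is identical to Mup20 for 391 bases from the Mup20 start codon, and 272 of the 804 runs of 125 bases in the Mup20 transcript occur in Mup-ps19. No Mup20 run occurs in any of the other members. In the Illumina GSNAP data Mup-ps19 had 5883, 4536, 6183, 6136 and 4485 reads in IL-1β and 10884, 7315, 5330, 10052 and 9279 reads in untreated libraries. The groups overlapped, through UNT_9576.

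Of the reads listed for Mup20 and Mup-ps19 together, Mup-ps19 had a nearly fixed part in the 10 Illumina GSNAP libraries, 23.2% to 24.1%, and had 27.8% to 31.4% with Ion Torrent and GSNAP. With STAR, Mup-ps19 had 0 to 2 reads in the Illumina and 0 to 1 in the Ion Torrent libraries. With STAR + Bowtie2 its part was 0.587% to 1.29% and 6.44% to 8.13%. The part did not differ in the mean between IL-1β and untreated mice with Illumina and GSNAP, at 23.8% in each group.

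**Figure D3:**
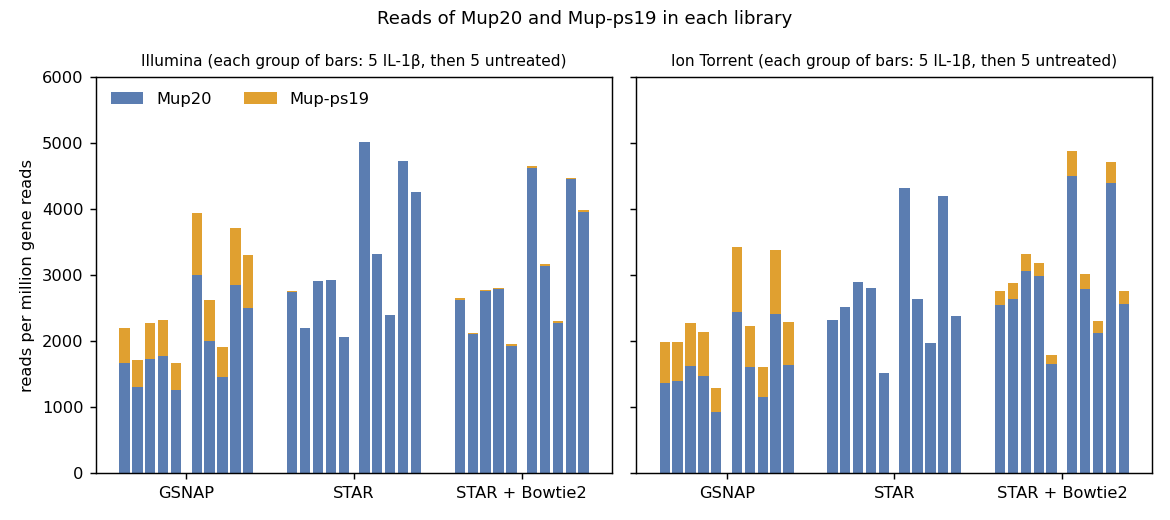
Reads scaled to library size (y axis, CPM, from 0) of Mup20 and Mup-ps19, stacked, in each library of the 6 tables (x axis), with 5 IL-1β bars followed by 5 untreated bars for each aligner and a panel for each platform. The Mup-ps19 part of each bar is 23.2% to 24.1% with Illumina and GSNAP and 27.8% to 31.4% with Ion Torrent and GSNAP, and cannot be seen with STAR.

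Mup-ps22 was low with Illumina and STAR, with 53, 31, 46, 60 and 58 reads in IL-1β and 111, 65, 63, 72 and 63 in untreated libraries. Every IL-1β library was below every untreated library, by as little as 3 reads. Its edgeR log2 fold change there was -0.41 (SE 0.21, adjusted p = 0.122). With Ion Torrent and STAR it had 0 to 4 reads, which is close to the 3 reads that a count of 0 allows at the 95% level. With GSNAP it had 46 to 108 reads on Illumina and 473 to 1122 on Ion Torrent. With STAR + Bowtie2 it had 1714 to 5169 reads on Illumina and 5081 to 10442 on Ion Torrent. The study reports that Mup-ps22 was detectable by qPCR. It was called lower with IL-1β in the Illumina STAR + Bowtie2 table only (-0.53, SE 0.18, edgeR adjusted p = 0.0227), where its reads were 2485, 1714, 2305, 2578 and 2665 against 5169, 2807, 2645, 4148 and 3938. UNT_9576 lay below ILB_9583 there.

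Gene by gene, no member was called higher with IL-1β in any table, and the members called lower were mostly genes and mostly on Illumina. With edgeR over the 15578 genes tested, 14 of 41 members were lower with Illumina and GSNAP, 9 with STAR and 30 with STAR + Bowtie2. Over all genes tested, 23.9%, 22.9% and 24.4% were called lower in these tables, so that the STAR count of 9 of 41 was close to that background. Only 19 of the 41 members reached the detection minimum in the Illumina STAR table, however, and all 9 calls were among them. Of the 15578 genes tested, 13117 reached it there, and the share called among those is not given here. On Ion Torrent, 0 members were lower with GSNAP (background 23.9%), 3 with STAR (background 21.8%) and 1 with STAR + Bowtie2 (background 24.0%). These shares of the members were below the background. Called higher were 0 members in each table, against backgrounds of 23.7%, 22.7% and 22.9% on Illumina and 22.5%, 20.3% and 22.8% on Ion Torrent. With an unadjusted edgeR p under 0.05, the Ion Torrent counts were 4, 8 and 15. The share of all genes under that unadjusted bound is not given here, so these counts have no background. Because of the near-identical sequences, the members cannot be taken as independent of each other.

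Directions were more uniform than calls. The log2 fold change was below 0 for 35, 29 and 41 of the 41 members in the Illumina tables and for 41, 34 and 41 in the Ion Torrent tables. It was above 0 for 4, 3 and 0 members on Illumina and for 0 members in each Ion Torrent table. For 2, 9 and 0 members on Illumina and 0, 7 and 0 on Ion Torrent it was exactly 0, since they had no reads in that table. The median over the members was -0.58, -0.53 and -0.55 on Illumina and -0.31, -0.40 and -0.36 on Ion Torrent, compared with -0.01 to 0.00 over all genes tested. Over the members detected in each table it was -0.57, -0.66 and -0.55 on Illumina and -0.31, -0.37 and -0.37 on Ion Torrent. Members in which every IL-1β library was below every untreated library numbered 2, 4 and 6 on Illumina, where the background was 22.4%, 21.4% and 21.8%, and 2, 4 and 3 on Ion Torrent, where it was 22.5%, 21.1% and 22.1%. These counts were below the background share of the 41 members in each table. Overlap was judged here on reads not scaled to library size, for the members and the background alike.

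Called lower in all 3 Illumina tables were 9 genes, namely Mup1, Mup2, Mup3, Mup10, Mup11, Mup12, Mup14, Mup16 and Mup20. Out of 41 members this is close to the background for the same criterion, 21.4% of all genes tested. The same 9 genes were all the members called in the Illumina STAR table, where only 19 members reached the detection minimum. In at least 1 of the 6 tables, 32 of the 41 members were called lower, above the background of 30.4%, and 9 tested members never were. Of these 32, 30 were called in the Illumina STAR + Bowtie2 table, where the count fell to 6 without UNT_9574. Mup1 and Mup2 were called lower in 4 tables, the Ion Torrent STAR table included. Of the pseudogenes, Mup-ps14 and Mup-ps19 were called with Illumina and GSNAP and 11 pseudogenes with Illumina and STAR + Bowtie2. Mup-ps14 did not reach the detection minimum in that GSNAP table, with 1, 1, 3, 2 and 1 against 6, 4, 5, 3 and 18 reads. It was also 1 of the 3 members called with Ion Torrent and STAR, again below the minimum, with 0, 2, 0, 0 and 1 against 4, 3, 3, 5 and 4 reads. Among detected members the counts called lower are thus 13 and 2 in these tables, and the other 4 tables have the same counts as before. Without UNT_9584 the counts were 7, 7 and 12 on Illumina and 0, 3 and 0 on Ion Torrent, with backgrounds of 20.0% to 23.8%.

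**Figure D4:**
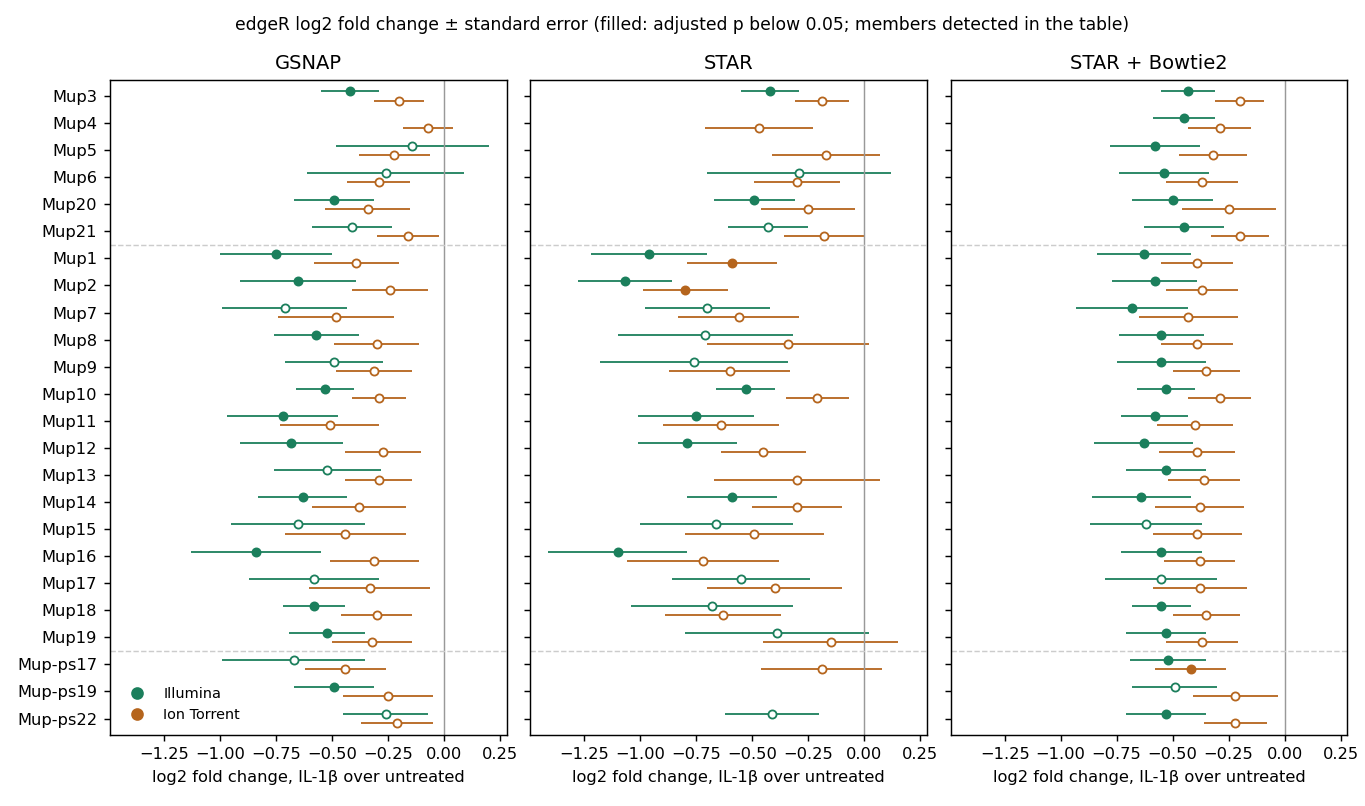
Log2 fold change of IL-1β over untreated with its standard error (x axis) from edgeR for the 21 genes and the 3 most abundant pseudogenes (y axis), with a panel for each aligner, a color for each platform and filled points for an adjusted p below 0.05, where the member was detected in the table. Every plotted value is below 0, the filled points are mostly Illumina, and the Ion Torrent values mostly lie nearer to 0 than the Illumina values of the same member.

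Mup3, the most abundant member, had 82958, 73225, 87128, 78501 and 83093 reads in the IL-1β and 117656, 121065, 100766, 124749 and 143805 in the untreated libraries with Illumina and GSNAP. All IL-1β libraries were below all untreated ones. Its edgeR log2 fold change was -0.42 (SE 0.13, adjusted p = 0.0146), the second highest among the 20 members with a mean of at least 100 reads in this table. In the Ion Torrent GSNAP table its reads were 107699, 112005, 116839, 107498 and 92952 against 139540, 135092, 118888, 159666 and 129828. In reads the groups did not overlap there either, but total counts were lower in IL-1β libraries (14499101 to 14622135) than in untreated libraries (14851983 to 15113883). As a share of all reads, ILB_9579 (116839 of 14622135) lay above UNT_9576 (118888 of 15101509), so that the groups overlapped. The change of -0.20 (SE 0.11) did not pass the test (edgeR adjusted p = 0.145).

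Mup20, the darcin gene, had 18894, 14581, 19507, 19810 and 14248 reads in the IL-1β and 34602, 23277, 17045, 33262 and 29217 in the untreated Illumina GSNAP libraries. UNT_9576 lay within the range of the IL-1β group, and the other untreated libraries were above it. The log2 fold change was -0.49 (SE 0.18, edgeR adjusted p = 0.0371), and STAR gave -0.49 and STAR + Bowtie2 -0.50. In the Ion Torrent tables Mup20 had -0.34, -0.25 and -0.25, none of which passed (edgeR adjusted p = 0.146, 0.367 and 0.341).

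Mup7 varied widely between mice, with 32794, 17537, 27501, 35964 and 43693 reads in the IL-1β and 93919, 36585, 32196, 70193 and 57880 in the untreated Illumina GSNAP libraries. The groups overlapped, with UNT_9576 and UNT_9575 among the IL-1β values. Its log2 fold change was -0.71 (SE 0.28) and did not pass with GSNAP or STAR (edgeR adjusted p = 0.0526 and 0.0549), while that of -0.68 with STAR + Bowtie2 did (adjusted p = 0.0395). Mup10, of the same near-identical set, had 16409, 12260, 15193, 14393 and 15880 against 26609, 22786, 19171, 24360 and 27571 reads. Its groups did not overlap, and its change of -0.53 (SE 0.13, edgeR adjusted p = 0.00315) was called with each aligner on Illumina. On Ion Torrent, Mup10 had -0.29, -0.21 and -0.29, none past the threshold.

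Mup11 had 6357, 2973, 4994, 5035 and 4947 against 14597, 5443, 5468, 10668 and 8845 reads with Illumina and GSNAP, and Mup14 had 13771, 8916, 12764, 14143 and 13677 against 29191, 16744, 13849, 25313 and 24945. In both genes 1 or more untreated libraries lay within the IL-1β range. The log2 fold changes were -0.72 for Mup11 and -0.63 for Mup14 (edgeR adjusted p = 0.0301 and 0.0161).

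The lowest fold changes among the 20 members with at least 100 reads in the Illumina GSNAP table belonged to Mup16 and Mup1. Mup16 had 657, 360, 493, 512 and 747 against 2123, 662, 587, 1183 and 1039 reads and a log2 fold change of -0.84 (SE 0.29, edgeR adjusted p = 0.0291). Mup1 had 996, 574, 863, 986 and 1264 against 2802, 1465, 918, 1697 and 2026 reads and a change of -0.75 (SE 0.25, edgeR adjusted p = 0.0224). In both genes UNT_9574 was the highest library, and the groups overlapped. Mup21, the relative of Mup3, had the highest change of these members, -0.41 (SE 0.18, edgeR adjusted p = 0.0702), from 1836, 1087, 1533, 1622 and 1761 against 2738, 2343, 1430, 2917 and 2308 reads.

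Mup-ps17, the pseudogene next in abundance after Mup-ps19 and Mup-ps22, had 81, 50, 67, 105 and 136 against 307, 94, 93, 145 and 151 reads with Illumina and GSNAP, with overlapping groups. Its change of -0.67 (SE 0.32) did not pass (edgeR adjusted p = 0.107). With STAR + Bowtie2 it was called lower on both platforms, at -0.52 on Illumina and -0.42 on Ion Torrent (edgeR adjusted p = 0.0228 and 0.0404). Mup-ps19 had -0.49 with Illumina and GSNAP (edgeR adjusted p = 0.0344).

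**Figure D5:**
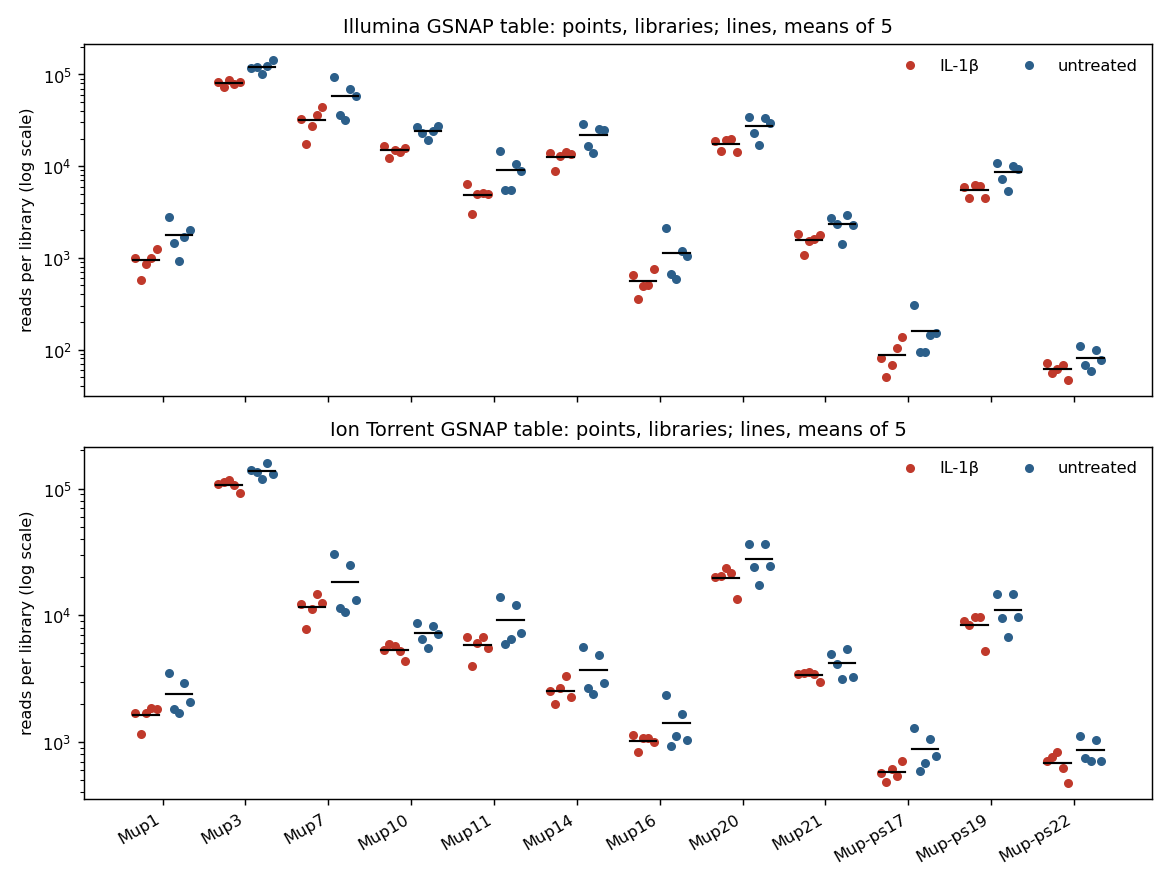
Reads per library (y axis, logarithmic) of the 12 members described singly (x axis) in the GSNAP tables of Illumina (upper panel) and Ion Torrent (lower panel), with points for libraries and lines for the means of 5. On Illumina the untreated libraries of Mup3 and Mup10 lie above all IL-1β libraries, and the groups of the other 10 members overlap.

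No member differed in its treatment effect between the platforms at an adjusted p below 0.05 in edgeR fits blocked by mouse. The count was 0 of 41 for every aligner, where the background over all genes was 0.0642% (GSNAP), 0.00642% (STAR) and 0.0770% (STAR + Bowtie2). DESeq2 and limma-voom also called 0. An unadjusted edgeR p under 0.05 was found for 17, 10 and 15 members, without a background over all genes at that bound. The lowest adjusted p was 0.567 with GSNAP, for Mup16, whose log2 effect was higher on Ion Torrent by 0.49 (SE 0.15). The median term over the members was 0.25, 0.12 and 0.22, compared with -0.02, -0.00 and -0.01 over all genes tested.

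Summed by sequence, the near-identical genes made up 0.711% ± 0.158 (SD, n = 5) of all reads in IL-1β and 1.21% ± 0.421 in untreated mice with Illumina and GSNAP, with a range of 0.453% to 0.851% against 0.762% to 1.78%. These ranges overlapped. The distinct genes made up 0.888% ± 0.061 and 1.3% ± 0.182, ranging from 0.794% to 0.959% and from 1.02% to 1.51%, without overlap. As a log2 ratio of these means, the near-identical genes had -0.77 and the distinct genes -0.55, and on Ion Torrent with GSNAP -0.49 and -0.33. These ratios are of shares of all reads, without TMM. On the same scale the whole family had -0.65 and -0.37. The difference between the sets was not tested.

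Other gene groups known to be linked to Mup expression were examined in the Illumina and Ion Torrent GSNAP tables, from lists fixed by name. As background, 23.9% of all genes tested were lower and 23.7% higher with IL-1β in the Illumina table, and 23.9% and 22.5% in the Ion Torrent table. The male-biased hepatocyte genes are, like the Mup genes, known to depend on growth hormone pulses. Of the 12 tested, 9 were lower and 1 higher with IL-1β on Illumina (median log2 fold change -0.80), and 9 and 0 on Ion Torrent (median -0.67). Hsd3b5, a steroid-metabolizing enzyme, had the lowest value, with 74 to 397 reads in IL-1β and 2083 to 3136 in untreated libraries (Illumina log2 fold change -3.50, edgeR adjusted p = 9.8e-07). The 3 most abundant of the list were Cyp2d9 at -0.60, Selenbp2 at -1.56 and Ugt2b1 at -0.89, all called, and Ugt2b38 had the highest value, 1.01 (edgeR adjusted p = 0.0135).

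Among 13 genes of growth hormone signaling, 7 were lower and 3 higher on Illumina (median -0.39) and 7 and 4 on Ion Torrent (median -0.32). Ghr, the growth hormone receptor, fell by 0.85 on the log2 scale and Igf1 by 0.39 (edgeR adjusted p = 2.78e-05 and 0.0225). Igfals, which encodes a carrier of IGF1 in blood, had 225 to 433 reads in IL-1β and 685 to 1731 in untreated libraries (edgeR adjusted p = 3.5e-05). Socs3, a feedback inhibitor of cytokine signaling, had the highest value, with 405 to 993 reads in IL-1β and 54 to 281 in untreated libraries (2.29, edgeR adjusted p = 0.000199). Cux2 had 0 reads in every IL-1β library and 1 to 30 in the untreated libraries.

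Of the 15 hepatocyte transcription factors, 6 were lower and 4 higher on both platforms (median 0.00 on Illumina and -0.05 on Ion Torrent). The count of 4 of 15 is near the background share of genes called higher. Hnf4a, a main regulator of hepatocyte genes, rose by 1.04 on the log2 scale, Cebpa fell by 0.87 and Onecut2 by 1.38 (edgeR adjusted p = 5.33e-07, 0.000835 and 1.73e-05). The extremes were Cebpb, at 1.34, and Thrb, a thyroid hormone receptor, at -1.40.

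Among 10 other lipocalins tested, in contrast to the Mup members, 5 were higher and 2 lower on Illumina (median 0.15), and 5 and 3 on Ion Torrent (median 0.06). Lcn2, an iron-siderophore binding protein of the acute phase, had 38 to 95 reads in untreated and 42673 to 53201 reads in IL-1β libraries (9.79, edgeR adjusted p = 2.63e-12). Ambp and Rbp4, the carrier of retinol, had 0.48 and -0.71 (edgeR adjusted p = 0.00118 and 0.000113). The lowest value, that of Ptgds, did not pass the test on Illumina (-1.19, edgeR adjusted p = 0.134).

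Of 10 markers of hepatocytes, the cells that make these proteins in liver, 6 were lower and 1 higher with IL-1β in the Illumina GSNAP table (median log2 fold change -0.45), and none was at 0. The one higher was Trf, the transferrin gene, at 0.35 (edgeR adjusted p = 0.01), and Apoa1, Apob and Ttr, at -0.31, 0.36 and -0.32, did not pass the test. Their summed level, scaled to library size (CPM), was 77260 to 87496 in IL-1β and 112936 to 131141 in untreated libraries, without overlap. In the Ion Torrent GSNAP table it was 84436 to 93260 and 114607 to 139033. Alb, the albumin gene, held 60.7% to 70.3% of the Illumina sum and fell by 0.53 (edgeR adjusted p = 0.00345). The other 9 markers summed to 28214 to 32096 CPM in IL-1β and 35709 to 42617 CPM in untreated Illumina libraries, also without overlap. Of 8 neutrophil markers, 4 were tested and all 4 were higher, with a summed level of 39.6 to 85.7 against 0.772 to 2.6 CPM. Of the Kupffer cell markers, 3 of 8 were lower and 1 higher, of the endothelial markers 2 of 7 and 2, and of the stellate cell markers 2 of 6 and none. In these short lists, 2 called genes lie near the backgrounds of 23.9% and 23.7%. The part of cell composition in the Mup changes was not tested.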

How the data were processed

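Liver RNA of 10 mice was measured in 20 libraries, 5 IL-1β and 5 untreated mice on each of 2 platforms. The authors aligned the reads to mm9 with GSNAP, STAR 2.5.1b or STAR + Bowtie2 2.2.9, removed rRNA and mitochondrial reads, used PORT to re-sample all libraries within a table to equal numbers of gene-mapping reads and deposited whole-number counts per Ensembl gene. How reads with several alignments were counted is not given in the sources used here. Because re-sampling was done per table, treatments were compared within a table.

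All 60 columns of counts were used, with 10568530 to 16439683 reads per library, and no pair of libraries of a table held identical values. The 15578 genes with 5 or more reads in 5 or more libraries of any table were tested. The main test was the quasi-likelihood test of edgeR (TMM, Benjamini-Hochberg over all genes tested, adjusted p below 0.05), for single genes, for the summed family, and for the platform-by-treatment term with the mouse as a block. Each mouse's number stands in the labels of both of its libraries, which pairs them, and the deviations of the libraries of a mouse correlated at 0.199 to 0.721. The study's own test was a rank-sum test, which is an alternative here since it gives no effect size. Other alternatives were DESeq2, limma-voom, RLE scaling, library totals, no filter on low counts, TMM factors computed without the members, sums without the pseudogenes or without Mup20 and Mup-ps22, no block, and leaving out each mouse. Replicates are separate mice. The tests were run on simulated data first.

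The members follow from their symbols. Members, gene lists and tests were chosen with earlier results of these data known. Members described singly are the 6 with the largest share of Mup reads, Mup20 and Mup-ps22, the 3 most abundant pseudogenes, the 2 highest and 2 lowest fold changes among members with a mean of at least 100 reads in the Illumina GSNAP table, and any member with a called platform-by-treatment term, of which there were 0. From each gene list the 3 most abundant genes and the highest and lowest fold change are named. Reference sequence and gene models are those of NCBIM37, in which 37310 of the 37681 identifiers and all 42 members were found. Tables and figures were made in Python 3.11.15 with pandas 2.3.3, numpy 2.4.6, matplotlib 3.10.9 and scipy 1.17.1, and models were fitted in R 4.3.3 with DESeq2 1.42.0, limma 3.58.1 and edgeR 4.0.16.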

Additional observations from a re-analysis of the deposited data

Results flagged for a closer look

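In 12 of 184 groups of 5 libraries, the lowest or the highest library lay apart from the others, with a gap to its nearest neighbor, relative to the range of the group, above Dixon's critical value. Chance gives about 1 in 20 groups such a library, and the groups share libraries and reads.

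In 7 of the 12 it was ILB_9578 that was lowest of the IL-1β group. Its summed Mup reads on Illumina were 1.29% of all reads with GSNAP (others 1.69% to 1.77%), 1.11% with STAR (others 1.35% to 1.4%) and 2.27% with STAR + Bowtie2 (others 2.99% to 3.19%). Mup14 had 796 reads scaled to library size (CPM) there with Illumina and GSNAP (others 1131 to 1261). On Ion Torrent, Mup1 had 79.1 CPM in ILB_9578 with GSNAP (others 115 to 128) and 837 with STAR + Bowtie2 (others 1107 to 1166), and the near-identical genes together made up 1.47% of all reads with STAR + Bowtie2 (others 1.87% to 2.02%).

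In 3 groups, UNT_9574 was the highest untreated Illumina library. Mup-ps17 had 26.6 CPM there with GSNAP (others 7.93 to 13), Mup-ps22 had 10.2 with STAR (others 5.7 to 6.55), and the pseudogenes together made up 0.00109% of all reads with STAR (others 0.000643% to 0.000728%).

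In the other 2 groups, ILB_9583 was the lowest IL-1β library on Ion Torrent with GSNAP. Mup21 had 206 CPM there (others 235 to 243) and Mup-ps19 had 361 (others 581 to 666). The causes were not tested.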

How the results depend on the processing

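The Illumina fall of the summed Mup reads kept its direction and its call in every alternative run for the sum. Adjusted p was between 0.00167 and 0.0437 over these fits with edgeR, DESeq2 and limma-voom. The rank test and the run without a filter on low counts were not among them. On Ion Torrent the family sum was called with library totals in place of TMM (-0.37, -0.36 and -0.41 with GSNAP, STAR and STAR + Bowtie2; edgeR adjusted p = 0.0279, 0.0396 and 0.025), a scaling that moves the median of all genes to between -0.11 and -0.09. It was also called without UNT_9576, the untreated library with the fewest Mup reads, with GSNAP (-0.36, edgeR adjusted p = 0.0449) and STAR + Bowtie2 (-0.40, adjusted p = 0.048).

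The number of members called lower moved more. The share of all genes called under each of these settings is not given here, so the counts have no background. On Illumina, 14 with GSNAP became 6 with the rank test and 7 with limma-voom, 9 with STAR became 5 with limma-voom, and 30 with STAR + Bowtie2 became 13 with the rank test. On Ion Torrent, 0 with GSNAP became 8 with library totals, 2 without the filter and 3 with the rank test. The 3 with STAR became 9 with library totals, and the 1 with STAR + Bowtie2 became 17 with library totals, 4 without the filter, 4 with the rank test and 0 with limma-voom. The causes were not tested.

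Leaving out each mouse in turn gave 7 to 19, 6 to 14 and 6 to 32 members on Illumina and 0 to 5, 2 to 9 and 0 to 18 on Ion Torrent (GSNAP, STAR, STAR + Bowtie2). A background over all genes is given only for the runs without UNT_9584, in the Results. With Illumina and GSNAP the count was 9 without ILB_9578 or UNT_9580 and 7 without UNT_9574 or UNT_9584. With Illumina and STAR it was 14 without UNT_9575, and with Illumina and STAR + Bowtie2 12 without ILB_9578 or UNT_9584, 6 without UNT_9574 and 18 without UNT_9580. With Ion Torrent and GSNAP it was 5 without UNT_9575 or UNT_9576 and 1 without ILB_9583. With Ion Torrent and STAR it was 5 without ILB_9577, 9 without UNT_9575 and 7 without UNT_9576. With Ion Torrent and STAR + Bowtie2 it was 18 without UNT_9575, 13 without UNT_9576, and 0 without ILB_9579, ILB_9582, UNT_9574, UNT_9580 or UNT_9584. The family sums ran from -0.65 to -0.45, -0.58 to -0.41 and -0.63 to -0.45 on Illumina, and from -0.36 to -0.16, -0.32 to -0.12 and -0.40 to -0.22 on Ion Torrent.

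The platform-by-treatment terms of the family sum were 0.30, 0.25 and 0.19 without the mouse block (edgeR adjusted p = 1 for each) and 0.19 to 0.38, 0.15 to 0.32 and 0.16 to 0.32 when each mouse was left out. The count of members with such a term was 0 in each alternative, and the block changed no call. Among the fold changes of single named members, 904 values kept their direction and side of the threshold, 114 lost a call, 60 gained one and 1 reversed, that of Mup21 with Ion Torrent and STAR without UNT_9580, at 0.02.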
